A study of Mus musculus with 12 samples.

Results

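Carbonic anhydrases interconvert carbon dioxide and water with bicarbonate and a proton. In fat cells this supplies bicarbonate to carboxylating enzymes such as pyruvate carboxylase and acetyl-CoA carboxylase, and it takes part in pH control. Car3 encodes a cytosolic member that is abundant in fat and in slow skeletal muscle and has a low hydratase activity. Car2 and Car13 encode cytosolic members, of which CAR2 is one of the fastest of the family. Car5b encodes a mitochondrial member, and Car4 a member held at the outer face of the plasma membrane by a lipid anchor.

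These 5 genes were described across 12 whole-transcript microarrays of mouse 3T3-L1 adipocytes, out of 19480 named genes and 22104 transcript clusters (the array's unit for 1 transcribed region). They were selected by gene symbol with values of the same arrays in view, and Car3 leads because its signal was lower with the inhibitor. Differences between inhibitor-treated and inhibitor-free cells are therefore given for the 5 genes as a description, without a test. Each gene had 1 transcript cluster with its symbol alone. These were TC0300000095.mm.2 for Car3, TC0300000096.mm.2 for Car2, TC1100001285.mm.2 for Car4, TC0X00003327.mm.2 for Car5b and TC0300000092.mm.2 for Car13. In the RefSeq gene order (GRCm38.p6), Car13, Car1, Car3 and Car2 follow one another on chromosome 3, apart from pseudogenes and a non-coding RNA between them, with Car3 directly beside Car2. Car4 lies on chromosome 11 and Car5b on chromosome X.

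3T3-L1 is a mouse preadipocyte line that turns into fat-storing cells after a hormone cocktail. All cells were differentiated, then kept in maintenance medium with 5 µg/ml insulin, and RNA was taken on day 8. From day 0 to day 8 they received alpha-linolenic acid (ALA, an omega-3 fatty acid) at 50 µM together with 5 µM of an inhibitor of delta-6 desaturase (D6D), ALA at 50 µM alone, the inhibitor at 5 µM alone, or the ethanol and DMSO vehicle as control. D6D, the product of Fads2, takes the first step in converting ALA to longer omega-3 fatty acids. The labels state albumin (2%, free of fatty acids) for the ALA medium, and do not say whether the other media held it. Each treatment had 3 arrays, 1 each from cells at passage 6, 7 and 8, and values below follow that passage order. All arrays come from a single cell line, and the labels do not name separate cultures beyond the passages, so p-values measure the spread between these arrays.

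Values are log2 signals as deposited, after robust multi-array averaging (RMA). A log2 difference of 1 is a doubling of signal, and signals of different genes are not compared with one another because each cluster has its own probes. The arrays' medians lay between 6.14 and 6.27. The ALA array of passage 7 stood apart, with correlations of 0.976 to 0.987 to the others, against 0.989 to 0.994 among the other 11, so results that rest on it are also given without it. Adipocyte genes were high, with 22 of 24 measured markers above the median cluster level of 6.19, and Adipoq (adiponectin) averaged 13.10, 13.05, 13.10 and 13.06 with ALA plus inhibitor, with ALA, with inhibitor and in control. Of 15 preadipocyte and fibroblast markers, 12 also lay above that level. Of 17 skeletal muscle markers 3 did. The slow-muscle genes Myh7, Tnni1, Tnnc1 and Tnnt1 averaged 3.29, 3.84, 5.79 and 6.14. Of other cell types that carry some of these enzymes, 1 of 10 endothelial, 1 of 9 macrophage, 2 of 9 osteoclast and 2 of 5 erythroid markers lay above it.

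Mean Car3 signal was lower in both inhibitor-treated groups than in both groups without it. With ALA plus inhibitor its log2 signal was 9.04, 8.71 and 10.10, against 10.26, 10.70 and 11.20 with ALA. With the inhibitor alone it was 9.06, 8.86 and 9.96, against 9.77, 9.98 and 10.48 in control. The lowest ALA array lay above the highest array with ALA plus inhibitor, whereas inhibitor and control arrays overlapped through the passage 8 array of the inhibitor group. Means were 9.28 ± 0.72 with ALA plus inhibitor, 10.72 ± 0.47 with ALA, 9.29 ± 0.58 with inhibitor and 10.08 ± 0.37 in control (SD, n = 3 each). In order of these means, ALA stood first and control second, with overlapping arrays, and the 2 inhibitor groups differed by less than their SDs.

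**Figure D1:**
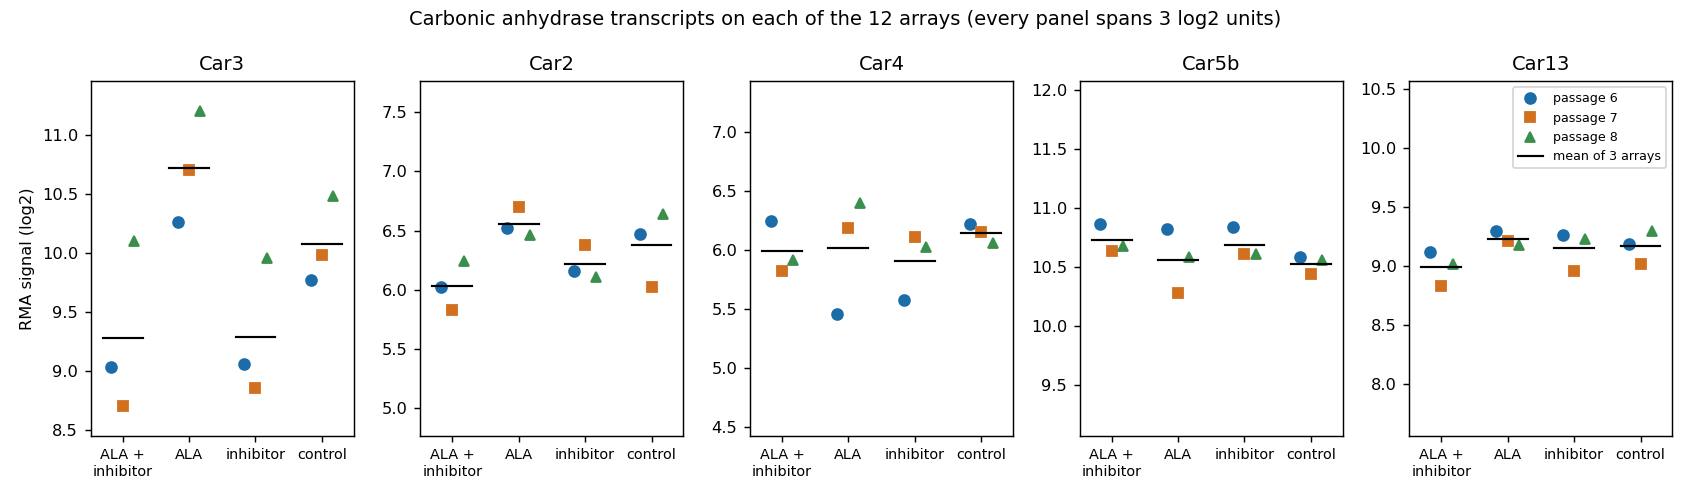
Log2 signal of the 5 carbonic anhydrase genes on each of the 12 arrays (vertical axis, the same 3 log2 units in every panel), by treatment (horizontal axis), with points for passages 6, 7 and 8 and a bar for the group mean. Car3 spans 8.71 to 11.20, with the ALA plus inhibitor arrays wholly below the ALA arrays, while each of the other 4 genes spans a narrower range.

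ALA plus inhibitor minus ALA was -1.44 for Car3 (SE 0.37), a 2.71-fold lower signal and the lowest difference of all 22104 clusters. It was lower within each passage, by -1.22, -1.99 and -1.11. Passage deviations were shared between these 2 groups, and with passage as a replicate block the SE was 0.17. Without the ALA array of passage 7 the difference was -1.45, or -1.26 with the block as well.

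Without ALA, the inhibitor minus control difference of Car3 was -0.78 (SE 0.37), a 1.72-fold lower signal, and within passages it was -0.71, -1.12 and -0.53. ALA plus inhibitor minus control gave -0.79 (SE 0.37, or 0.17 with passage as a replicate block), with -0.73, -1.27 and -0.39 within passages. These differences share the control arrays. With passage as a replicate block, inhibitor minus control also had an SE of 0.17. The passage deviations of inhibitor and control correlated at 0.194, 0.078 and 0.363, not all over 0.1. The inhibitor difference was 0.65 lower with ALA than without it (interaction -0.65, SE 0.52), and this too is a description.

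**Figure D2:**
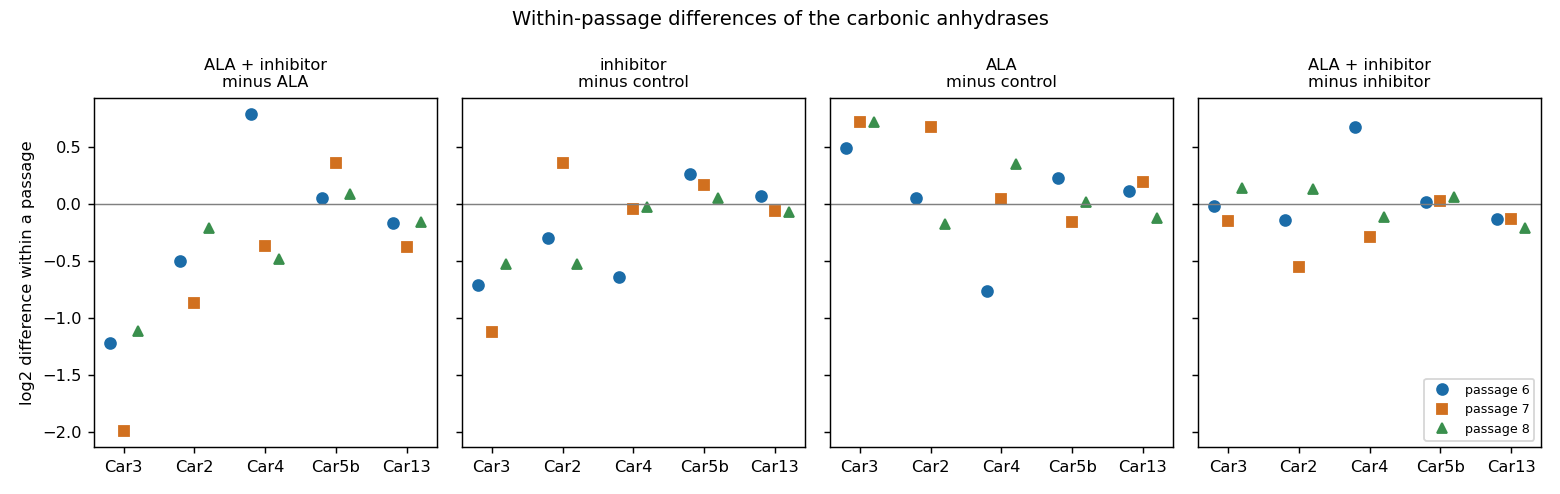
Log2 differences between treatments within passages 6, 7 and 8 (points) for each of the 5 genes, with inhibitor contrasts and ALA contrasts shown separately and 0 as no difference. Car3 lies below 0 in every passage with the inhibitor, at -1.22, -1.99 and -1.11 in the presence of ALA, and above 0 in every passage for ALA minus control, at 0.49, 0.72 and 0.72.

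ALA was a contrast that did not choose the genes, although its arrays also enter the inhibitor contrasts that did. Without inhibitor, Car3 was 0.64 higher with ALA than in control (SE 0.37, 1.56-fold), and higher in 3 of 3 passages, but the groups overlapped and limma's test did not call it (adjusted p = 1). An exact permutation test of the 6 arrays, which ignores passage, gave p = 0.2, two-sided. The smallest p that 3 against 3 arrays allow is 0.1. Without the ALA array of passage 7 the difference was 0.65 (limma adjusted p = 1). In the presence of the inhibitor, ALA plus inhibitor minus inhibitor gave -0.01 (SE 0.37, limma adjusted p = 1), with -0.02, -0.15 and 0.14 within passages. Of the 5 genes 0 were called in either ALA contrast, where limma called 0.0% of all clusters in both at an adjusted p under 0.05. At the unadjusted p under 0.01 that the series' own design names, 0.525% of clusters passed for ALA minus control and 0.728% for ALA plus inhibitor minus inhibitor, and in this fit, which has no passage term, 0 of the 5 genes did.

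Car3 also differed by passage. Its differences of passage 8 from passage 6 and from passage 7 were the only tested ones called among the 5 genes. Over the 4 treatments it averaged 9.53 ± 0.59 at passage 6, 9.56 ± 0.95 at passage 7 and 10.44 ± 0.56 at passage 8 (SD, n = 4 each, treatments included). Passage 8 minus passage 6 was 1.06 with ALA plus inhibitor, 0.94 with ALA, 0.89 with inhibitor and 0.72 in control. With treatment in the model, passage 8 exceeded passage 6 by 0.90 (SE 0.15, 1.87-fold, limma adjusted p = 0.017), rank 41 from the highest of all clusters. An exact permutation test of the 8 arrays, which ignores treatment, gave p = 0.086, two-sided. Passage 7 minus passage 6 was 0.03 (SE 0.15, limma adjusted p = 0.96), with 2 treatments higher and the other 2 lower. Passage 8 minus passage 7 was 0.87 (SE 0.15, limma adjusted p = 0.035). For passage 8 minus passage 7, limma called 191 of all 22104 clusters, and from 2 to 148 when single arrays were left out. Car3 values from those runs are not given for passage 8 minus passage 7. Of the 5 genes, Car3 alone was called between passages 8 and 6, where limma called 1.91% of all clusters and 5.95% had an unadjusted p under 0.01.

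The 4 arrays of a passage are different treatments of cells at 1 passage, so the test shows agreement over treatments and not over separate passages of the same number. The call between passages 8 and 6 ended when the treatment term was left out (0.90, limma adjusted p = 0.37). It also ended when any of 6 single arrays was left out. Those were the passage 6 arrays of ALA plus inhibitor (0.94, limma adjusted p = 0.058), ALA (0.83, 0.053), inhibitor (0.94, 0.054) and control (0.91, 0.065), and the passage 8 arrays of ALA plus inhibitor (0.79, 0.069) and inhibitor (0.87, 0.078).

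Car2, whose product is the fast cytosolic enzyme, sat near the median cluster level and above its array's median on 7 of 12 arrays. Its log2 signal was 6.02, 5.83 and 6.24 with ALA plus inhibitor, against 6.52, 6.70 and 6.46 with ALA. With the inhibitor alone it was 6.16, 6.38 and 6.11, against 6.47, 6.02 and 6.64 in control. The 2 groups with ALA did not overlap, while inhibitor and control arrays did, with the control array of passage 7 the lowest of those 6.

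The Car2 difference was -0.53 for ALA plus inhibitor minus ALA (SE 0.17, 1.44-fold lower), with -0.50, -0.87 and -0.21 within passages. Inhibitor minus control gave -0.16 (SE 0.17), and passage 7 ran the other way, at -0.30, 0.36 and -0.53. ALA minus control was 0.18 (SE 0.17, limma adjusted p = 1), and ALA plus inhibitor minus inhibitor was -0.19 (SE 0.17, limma adjusted p = 1). Without the ALA array of passage 7, ALA plus inhibitor minus ALA became -0.46 and ALA minus control 0.11. Passage 8 minus passage 6 was 0.07 (SE 0.15, limma adjusted p = 0.87), so the neighbour of Car3 on the chromosome did not pass the passage test that Car3 passed, and the difference between the genes was not tested.

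Car13, the other cytosolic member, was above the array median on every array and varied least of the 5 genes, with an SD over 12 arrays of 0.15, against 0.78 for Car3. Its log2 signal was 9.12, 8.83 and 9.02 with ALA plus inhibitor, against 9.30, 9.21 and 9.18 with ALA. With the inhibitor alone it was 9.26, 8.96 and 9.23, against 9.19, 9.02 and 9.30 in control. The groups with ALA did not overlap, and those without it did.

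Car13 differed by -0.24 for ALA plus inhibitor minus ALA (SE 0.13) and was lower in each passage, by -0.17, -0.38 and -0.16. Inhibitor minus control was -0.02 (SE 0.13). Neither ALA contrast was called, with 0.06 for ALA minus control (SE 0.13, limma adjusted p = 1) and -0.16 for ALA plus inhibitor minus inhibitor (SE 0.13, limma adjusted p = 1). Passage 8 minus passage 6 was -0.03 (SE 0.09, limma adjusted p = 0.89).

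Car5b, the mitochondrial member, was above the array median on every array and ran opposite to Car3 in both inhibitor contrasts. Its log2 signal was 10.87, 10.64 and 10.68 with ALA plus inhibitor, against 10.82, 10.28 and 10.59 with ALA. With the inhibitor alone it was 10.84, 10.61 and 10.61, against 10.59, 10.44 and 10.56 in control. The ALA plus inhibitor and ALA arrays overlapped, with the ALA array of passage 7 the lowest of all 12, and the inhibitor arrays lay just above the control arrays.

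The Car5b difference was 0.17 for ALA plus inhibitor minus ALA (SE 0.14), and 0.02 without the ALA array of passage 7. It was 0.16 for inhibitor minus control (SE 0.14), higher within each passage by 0.26, 0.17 and 0.05. ALA minus control was 0.03 (SE 0.14, limma adjusted p = 1), or 0.17 without the ALA array of passage 7, and ALA plus inhibitor minus inhibitor was 0.04 (limma adjusted p = 1). Car5b was lower at passage 8 than at passage 6 in 4 of 4 treatments, by -0.17 (SE 0.09), which missed the adjusted threshold (limma adjusted p = 0.42). Passage 7 minus passage 6 was -0.29 (SE 0.09, limma adjusted p = 0.46), lower in 4 of 4 treatments as well.

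Car4, the membrane-anchored member, was above the array median on 3 of 12 arrays, and showed no shared direction with the inhibitor across passages in the presence of ALA. Its log2 signal was 6.25, 5.82 and 5.92 with ALA plus inhibitor, against 5.46, 6.19 and 6.40 with ALA. With the inhibitor alone it was 5.58, 6.11 and 6.03, against 6.22, 6.15 and 6.06 in control. The groups overlapped throughout, and the passage 6 arrays of ALA and of inhibitor were the 2 lowest of the 12.

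Differences of Car4 were -0.02 for ALA plus inhibitor minus ALA (SE 0.22), -0.24 for inhibitor minus control (SE 0.22) and -0.12 for ALA minus control (SE 0.22, limma adjusted p = 1). For ALA plus inhibitor minus inhibitor the value was 0.09 (SE 0.22, limma adjusted p = 1), and for passage 8 minus passage 6 it was 0.23 (SE 0.19, limma adjusted p = 0.64). Without the ALA array of passage 7, ALA plus inhibitor minus ALA was 0.07.

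Across the 5 genes, 3 had ALA plus inhibitor arrays wholly below the ALA arrays (Car3, Car2 and Car13), against 6.85% of all clusters in that direction. For inhibitor minus control, 1 of the 5 (Car5b) had inhibitor arrays wholly above control, against 5.88% of all clusters. Since the genes were selected with these contrasts in view, nothing is read from either share. Car3 had the sixth largest SD over the 12 arrays among the 19480 named genes. Over the 12 arrays, which share 4 treatments and 3 passages, Pearson's r with Car3 was 0.66 for Car2, 0.54 for Car13, 0.31 for Car4 and -0.48 for Car5b, and 0.70, 0.67, 0.22 and -0.75 with passage means removed.

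No other gene of the family differed by as much as Car3 in either inhibitor contrast. All 13 other genes of the carbonic anhydrase family were measured, among them Ptprg and Ptprz1, which encode receptor phosphatases with a carbonic anhydrase-like outer domain. For ALA plus inhibitor minus ALA, 6 were higher and 7 lower, with a median of 0.00, against -0.02 over all clusters, and a range of -0.28 (Ptprg) to 0.32 (Car12). For inhibitor minus control, 6 were higher and 7 lower, with a median of -0.03, against 0.00 over all clusters, and a range of -0.38 (Car9) to 0.42 (Ptprz1). Ptprz1 was 2.81, 2.90 and 3.45 with inhibitor, against 2.59, 2.71 and 2.59 in control, so the groups did not overlap, and every array lay below its median (SE 0.19, limma adjusted p = 1). None passed an unadjusted p under 0.01 in either contrast, where limma passed 1.47% and 0.855% of all clusters (325 and 189, and 561 with the replicate block for ALA plus inhibitor minus ALA).

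**Figure D3:**
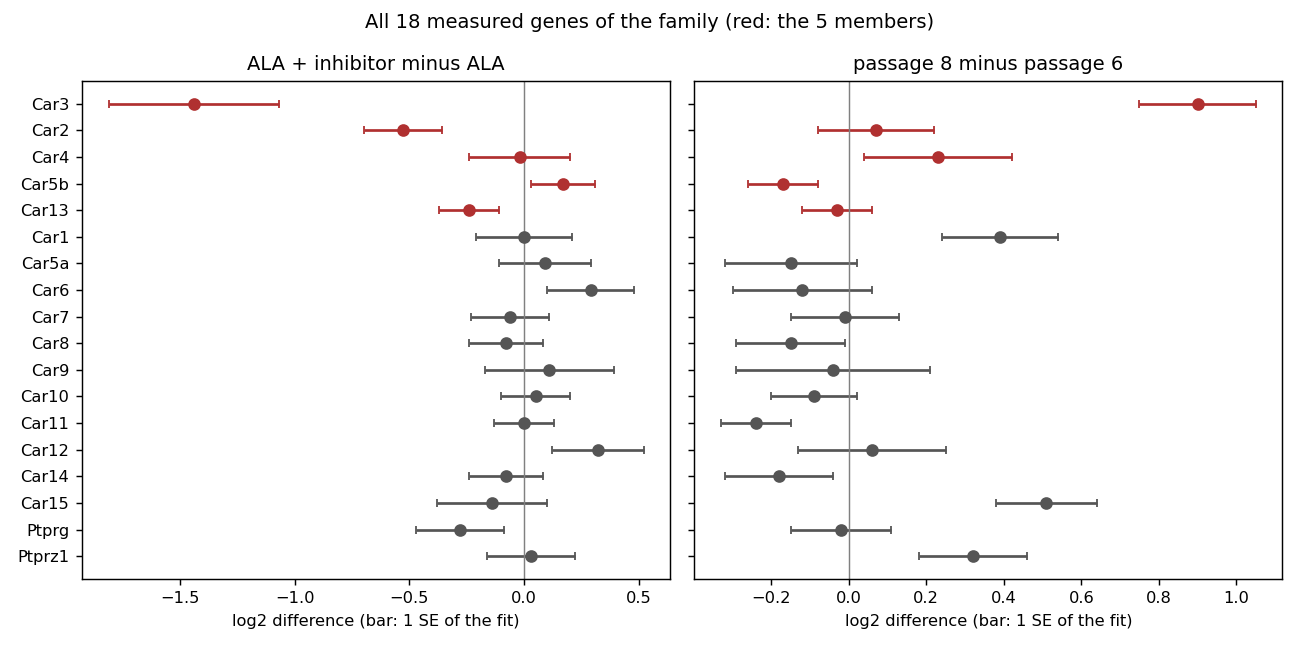
Log2 differences (points, with bars of 1 SE) of the 18 carbonic anhydrase family genes for ALA plus inhibitor minus ALA and for passage 8 minus passage 6. Car3 stands at -1.44 in the first panel, where the 13 genes outside the main 5 lie between -0.28 and 0.32, and at 0.90 in the second, where they lie between -0.24 and 0.51.

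With ALA and no inhibitor, 8 of these 13 genes were higher than control and 5 lower, and 0 had an unadjusted p under 0.01. In 2 of the 13, Car12 and Ptprz1, the groups did not overlap, against 6.77% of all clusters in either direction. Car12, a membrane-bound member, was 6.48, 5.97 and 5.77 with ALA, against 6.50, 6.49 and 6.50 in control. The difference of -0.42 was not called (SE 0.20, limma adjusted p = 1). Ptprz1 was 2.80, 3.22 and 2.89 with ALA, against 2.59, 2.71 and 2.59 in control, and the difference of 0.34 was not called either (SE 0.19, limma adjusted p = 1). Car6, the secreted member, had a difference of -0.38 (SE 0.19, limma adjusted p = 1) that came mainly from 1 array: 7.82, 7.50 and 6.87 with ALA, against 7.65, 7.84 and 7.83 in control.

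Car9, a membrane-bound member known as a hypoxia-induced gene, also had single low arrays. It was 8.36, 9.53 and 9.36 with the inhibitor, against 9.66, 9.48 and 9.26 in control, and the passage 6 array was the lowest of the 12. The difference was -0.38 (SE 0.28, limma adjusted p = 1). By passage, 4 of the 13 genes were higher and 9 lower at passage 8 than at passage 6, and 0 were called at the adjusted threshold. Car15 came nearest, at 0.51 higher (SE 0.13, limma adjusted p = 0.095) and higher in 4 of 4 treatments, although its arrays all lay below their medians.

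Genes that move, use or release the same molecules were counted from lists. Of 12 measured bicarbonate transporters (of 13 listed), 4 were higher and 8 lower with ALA plus inhibitor than with ALA, and 6 were higher and 6 lower with inhibitor than in control. None passed an unadjusted p under 0.01 in these contrasts or for ALA minus control, where 9 were higher and 3 lower. At passage 8 against passage 6, 1 was called, Slc26a6, an anion exchanger, which fell by 0.70 (difference -0.70, SE 0.14, limma adjusted p = 0.033). Of all clusters 1.91% were called there.

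Of 13 measured proton and lactate transporters (of 15 listed), 6 were higher and 7 lower for ALA plus inhibitor minus ALA, and 1 passed the unadjusted threshold. That was Slc9a9, a sodium-proton exchanger of endosomes, at -0.55 (limma adjusted p = 0.65). With the replicate block 2 passed. Of all clusters 325 passed (1.47%), or 561 with the block. With inhibitor against control 7 were higher and 6 lower, and none passed. By passage 4 were higher and 9 lower, with 1 higher and 2 lower past the unadjusted threshold and 0 at the adjusted one. Of all clusters 5.95% passed the unadjusted threshold by passage.

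The 11 enzymes that use bicarbonate or serve those that do, carboxylases and biotin enzymes among them, were split nearly evenly. For ALA plus inhibitor minus ALA 6 were higher and 5 lower, with a median of 0.05, and for inhibitor minus control 6 were higher and 5 lower, with a median of 0.03. None passed the unadjusted threshold in either. Pcx, pyruvate carboxylase, averaged 11.85 ± 0.05 with ALA plus inhibitor, against 11.77 ± 0.04 with ALA, and 11.84 ± 0.09 with inhibitor, against 11.73 ± 0.09 in control (SD, n = 3 each). Acaca, acetyl-CoA carboxylase 1, averaged 8.95 ± 0.07 with inhibitor, against 8.67 ± 0.10 in control, a difference of 0.28 (limma adjusted p = 1).

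Of 15 measured enzymes that release carbon dioxide, with soluble adenylyl cyclase, which bicarbonate activates, 10 were higher and 5 lower for ALA plus inhibitor minus ALA, and 9 were higher and 6 lower with inhibitor than in control. The exception in size was Pck1, the cytosolic phosphoenolpyruvate carboxykinase of glyceroneogenesis. It averaged 8.32 ± 0.42 with ALA plus inhibitor, against 9.49 ± 0.36 with ALA, and 8.36 ± 0.82 with inhibitor, against 9.32 ± 0.30 in control (SD, n = 3 each). Its differences were -1.17 (SE 0.35, limma adjusted p = 0.65) and -0.97 (limma adjusted p = 1). Like Car3, Pck1 was higher at passage 8 than at passage 6, by 0.92 (SE 0.16, limma adjusted p = 0.022).

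Most markers of fat cells and their precursors were also a little lower with the inhibitor, and few passed a test. Of the 24 adipocyte markers, 9 were higher and 15 lower for ALA plus inhibitor minus ALA, with a median of -0.09, against -0.02 over all clusters. Of these, 2 passed the unadjusted threshold (Pck1 and Bscl2, the seipin of lipid droplets, at -0.55), or 4 with the replicate block. Of all clusters, 46.6% were higher in this contrast and 1.47% passed (325, or 561 with the block). Between inhibitor and control 6 were higher and 18 lower (49.2% of all clusters were higher), with a median of -0.08, and none passed. Their mean level was 10.02, 10.06 and 10.22 with ALA plus inhibitor, against 10.25, 10.21 and 10.33 with ALA, and 9.94, 10.08 and 10.22 with inhibitor, against 10.20, 10.20 and 10.31 in control. Cebpa, a transcription factor of adipogenesis, averaged 9.81 with ALA plus inhibitor, against 10.06 with ALA, whereas Fabp4, the fat-cell fatty acid carrier, averaged 12.92 in both.

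Of the 15 preadipocyte markers, 3 were higher and 12 lower for ALA plus inhibitor minus ALA, with a median of -0.14. Of them 0 passed the unadjusted threshold, or 3 with the replicate block, against 325 and 561 of all 22104 clusters. For inhibitor minus control 1 was higher and 14 lower, with a median of -0.14. Both marker lists were thus lower at the median in the inhibitor groups, and their mean levels were higher at the later passages. Adipocyte markers averaged 10.10, 10.14 and 10.27 at passages 6, 7 and 8, and preadipocyte markers 9.45, 9.57 and 9.80.

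Between passages 8 and 6, 3 adipocyte markers were called higher, Pck1, Lep (leptin, 0.62, limma adjusted p = 0.038) and Gpd1 (0.36, limma adjusted p = 0.049), and 0 lower. Of all clusters 1.91% were called in either direction. Of the preadipocyte markers 6 were called higher, with Acta2, smooth muscle actin, at 1.54 and Col1a1, a collagen chain, at 0.48. The part of cell state in the Car3 differences was not tested. Skeletal muscle markers, which share Car3 as a muscle gene, had mean levels of 5.16 to 5.20 with ALA plus inhibitor, 5.14 to 5.45 with ALA, 4.96 to 5.30 with inhibitor and 5.09 to 5.28 in control. In bulk RNA, fewer cells of a type and less RNA per cell cannot be told apart.

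The genes most like Car3 were ranked by Pearson's r over the 12 arrays, among 10042 named genes whose mean was at or above the median of all clusters. The 10 highest were Aqp7, a glycerol channel of fat cells (r = 0.966), Fhl1, a LIM-domain protein (0.963), Slc36a2, an amino acid transporter (0.962), Nmnat2, an enzyme of NAD synthesis (0.956), Ptn, the growth factor pleiotrophin (0.951), Osr2, a transcription factor (0.949), Ablim1, an actin-binding protein (0.949), Glis3, a transcription factor (0.939), Sfrp2, a secreted Wnt modulator (0.937), and Gpd1, glycerol-3-phosphate dehydrogenase (0.931). The arrays share treatments and passages, so these values describe a shared pattern over 12 points. For ALA plus inhibitor minus ALA, Aqp7 differed by -0.70, Slc36a2 by -0.72, Sfrp2 by -0.89, Osr2 by -0.90 and Gpd1 by -0.24.

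The 5 least like Car3 were Mphosph8, a chromatin protein (r = -0.952), Hmox1, haem oxygenase 1 (-0.948), Hebp1, a haem-binding protein (-0.944), Rpl39, a ribosomal protein (-0.928), and Aacs, acetoacetyl-CoA synthetase (-0.923). Hmox1 was 0.31 and Aacs 0.46 higher with ALA plus inhibitor than with ALA. The ranking was loose, since 4 of the 10 and 1 of the 5 stayed with Spearman's correlation, 5 and 3 without the ALA array of passage 7, and 1 and 1 with treatment means removed. Among marker genes, the adipocyte markers Aqp7 (r = 0.966) and Gpd1 (0.931) are already among the 10 above. For the preadipocyte marker Dlk1, r with Car3 was 0.89. Of other adipocyte markers it was 0.88 for Lep, 0.86 for Pck1, 0.82 for Pparg, 0.80 for Cebpa and 0.76 for Plin1. It was 0.27 for Fabp4 and 0.22 for Adipoq, and -0.71 for Fads2. With passage means removed the sign turned for Fabp4 (-0.20) and Adipoq (-0.67), and Fads2 gave -0.88. The same step gave 0.87 for Dlk1, 0.84 for Lep, 0.89 for Pck1, 0.77 for Pparg, 0.89 for Cebpa and 0.73 for Plin1.

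**Figure D4:**
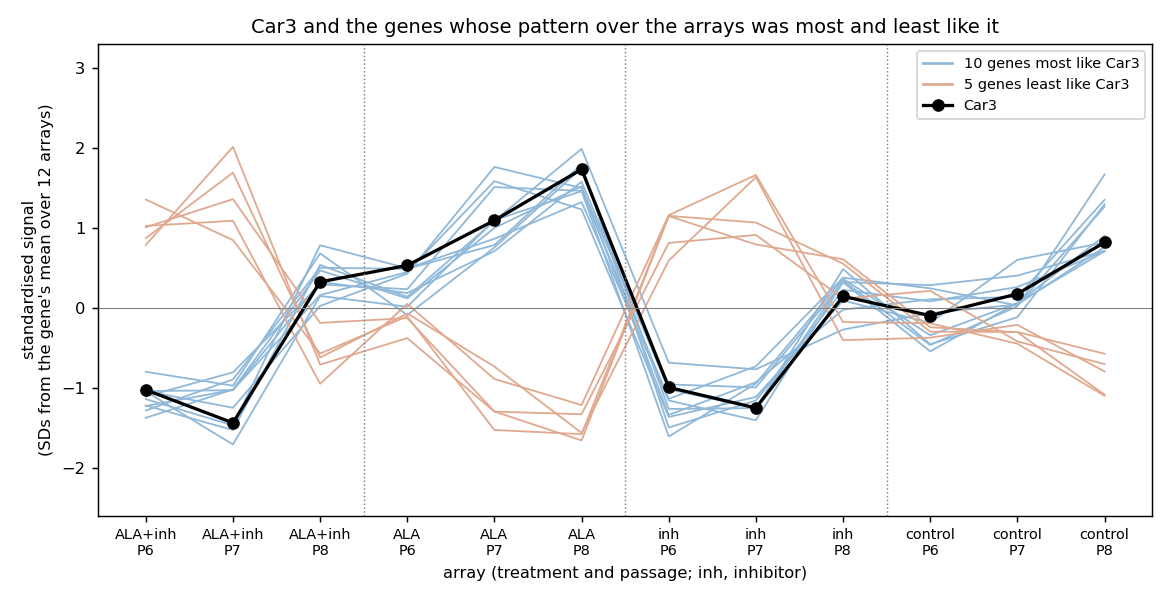
Signal of Car3 (black), the 10 genes most like it (blue) and the 5 least like it (orange) on the 12 arrays, standardised to each gene's mean and SD (vertical axis, in SDs). The blue lines follow Car3, which runs from -1.44 at ALA plus inhibitor passage 7 to 1.73 at ALA passage 8, and the orange lines mirror it, as their selection by r requires.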

How the data were processed

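The deposited values are log2 signals per transcript cluster made by the authors with RMA, per the submitters' processing notes; software and version are not given in the sources used here. Gene symbols came from the platform annotation supplied with the series, in which 19509 of 22104 clusters had 1 symbol. The other 2595 had no symbol or several and were left unnamed. No filter or pseudocount was applied. The limma fit (R 4.3.3, limma 3.58.1, statmod 1.5.0) had 1 coefficient per treatment over all 12 arrays, and the passage fit had treatment and passage as additive factors. Tests were two-sided with Benjamini-Hochberg adjustment over all clusters and called at an adjusted p under 0.05. The fit was also run on simulated data with independent noise and no shared passage deviations. That run does not show which differences these arrays could detect. The 5 genes, the lists and the rule for named genes (these 5, the other family genes, up to 4 genes of smallest p in each list and contrast, marker genes, and the 10 most and 5 least like Car3) were chosen with earlier results of these data known. Sharing of passage deviations was checked from their correlations. Every same-passage pair of ALA plus inhibitor with ALA was over 0.1 (0.163, 0.163 and 0.235). So was every same-passage pair of ALA plus inhibitor with control (0.121, 0.128 and 0.227). This did not hold for the other group pairs, so the block is given in the first 2, beside Car3 and some counts. For ALA plus inhibitor minus ALA, the SE with the block was 0.17 for Car2, 0.10 for Car13, 0.10 for Car5b and 0.22 for Car4. Elsewhere it is given only where stated. Precision is limited by the number of arrays.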

Additional observations from a re-analysis of the deposited data

How the results depend on the processing

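The Car3 differences for inhibitor minus control, ALA plus inhibitor minus ALA or control, and ALA minus control kept their sign under every alternative run; only the last was tested, and it stayed above the adjusted threshold in each. Leaving out single arrays gave -1.12 to -0.57, -1.85 to -1.15, -1.20 to -0.51 and 0.40 to 0.88 in that order. With passage as a replicate block, Car3 for ALA minus control had an SE of 0.17 and a limma adjusted p = 0.9, and so passed the unadjusted 0.01 threshold but not the adjusted one. These groups' passage deviations did not all correlate. The block changed no call at the adjusted threshold among the 5 genes. Car3 for ALA plus inhibitor minus inhibitor had no stable sign: 0.03 with array weights, 0.01 after quantile normalization, 0.06 without passage 7, and -0.42 to 0.32 leaving out arrays or passages. Car3 at passage 8 minus 6 gave 0.90 without the treatment term and 0.79 to 1.00 leaving out arrays. Leaving out arrays or passages turned the sign of some inhibitor differences of other genes, which were not tested. They were inhibitor minus control for Car2 (-0.42 to 0.03) and Car13 (-0.10 to 0.07). For Car4, ALA plus inhibitor minus ALA ran from -0.43 to 0.21. Signs of small differences also turned: Car2 ALA minus control (-0.07 without passage 7, -0.07 to 0.36 overall) and passage 8 minus 6 (-0.03 to 0.16); Car4 ALA minus control (-0.36 to 0.19) and ALA plus inhibitor minus inhibitor (-0.20 to 0.28); Car5b in the same contrasts (-0.10 to 0.17 and -0.03 to 0.12); Car13 ALA minus control (-0.02 to 0.15, -0.01 without passage 7 or with block and without ALA replicate 7) and passage (-0.08 to 0.01). Clusters at p under 0.01 for ALA minus control (116) numbered 186 with the block, 51 without the dimmest 30%, 77 with a trend, 60 from the 2 groups alone, 178 with block and without ALA replicate 7, and 82 to 281 leaving out arrays or passages. For ALA plus inhibitor minus inhibitor (161) they numbered 370 with array weights, 76 without the dimmest, 107 with a trend, 326 with block and without ALA replicate 7, and 99 to 233 leaving out arrays or passages. For inhibitor minus control (189) they numbered 322 with the block, 438 with weights, 110 without the dimmest, 472 with block and without ALA replicate 7, and 112 to 293 likewise. For ALA plus inhibitor minus ALA (325) they numbered 561 with the block, 188 from the 2 groups, and 135 to 624 likewise, with 186 lacking the ALA array of passage 7. Calls for passage 8 minus 6 (423) ran from 140 to 593. The causes were not tested. The alternative of another cluster per gene gave no value, each gene having 1, and a planned promoter motif search was not run.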
